A study of Mus musculus with 12 samples.

Results

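mir-21a (mmu-mir-21a) is the mouse precursor of miR-21, and it was 1 of 1050 miRBase precursors listed across 12 small RNA libraries. Its reads were gathered by name from the miRNA classes of every library, whether or not they matched the genome, and expressed as reads per 1000000 miRNA reads (CPM) and as reads per 1000000 clean reads left after removal of rRNA (RPM). mir-21a was chosen by its measured read levels in these libraries, so these levels are described below and are not tested. The sperm libraries came from the epididymis of C57BL6/J mice, with 3 sperm samples pooled per library. The mice received a control diet (CD, 16% of kcal from fat, n = 3 libraries) or a high-fat diet (HFD, 69% of kcal from fat per the labels, n = 3), in both cases for 7 weeks from 4 weeks of age, and the study's methods give a lower fat content for the HFD. The other libraries came from TM4, a mouse Sertoli cell line, which was left untreated (Ctrl, n = 2), treated with 10 µM of the AMPK inhibitor Compound C for 12 h (CC, n = 2) or made to overexpress angiogenin, a ribonuclease, from a plasmid (Ang OE, n = 2). The Ctrl libraries served both TM4 comparisons and no empty-vector library was labelled, so transfection and angiogenin cannot be told apart. The comparisons ask whether the diet, AMPK inhibition or angiogenin was accompanied by another level of mir-21a, and how mir-21a then weighed on the other miRNAs.

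miR-21 is among the most abundant miRNAs of many cell types, including epithelial, immune and stromal cells. A miRNA represses mRNAs that pair with its seed, bases 2 to 8 from the 5′ end, and known targets of miR-21 include the tumour suppressor Pdcd4, the protease inhibitor Reck and Sprouty inhibitors of receptor signalling. Transcription of its gene responds to AP-1 and STAT3, and the gene lies inside the transcription unit of Vmp1, which encodes an autophagy protein.

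In the GENCODE annotation of GRCm39, the 92-base hairpin of Mir21a lies at chr11:86474893-86474984 on the minus strand. It falls within Vmp1 (chr11:86474269-86574853, same strand), where all 31 Vmp1 transcripts that span the hairpin hold it in an exon and in an untranslated region, with no coding sequence over it. Vmp1 has 44 annotated transcripts in all. In GRCm38.p6, the build of the RefSeq sequences used here, the same hairpin is at chr11:86584067-86584158. The mature products of the precursor and of its named relatives are shown because the files count precursors and do not separate the arms, and because relatives with the same leading bases could share short reads. Capitals mark the seed.
miR-21a-5p: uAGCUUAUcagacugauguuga
miR-21a-3p: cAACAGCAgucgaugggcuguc
miR-21b: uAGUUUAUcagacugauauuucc
miR-21c: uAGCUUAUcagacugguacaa
Of 1679 mature mouse miRNAs in the RefSeq table, 2 carried the seed of miR-21a-5p, namely miR-21a-5p itself (chr11:86584120-86584141 of GRCm38.p6, minus strand) and miR-21c (chr8:128278188-128278208, minus strand). miR-21c shared the first 15 bases of miR-21a-5p and differed at 5 of the 21 positions they have in common. miR-21b (chr3:29636768-29636790, plus strand) differed at 4 of 22 positions, with a changed seed. mir-590, which is also named with this seed family, was not listed in any library.

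Depth was high in every library. Clean reads ranged from 31710445 to 41532413 in sperm and from 51457711 to 64038150 in TM4, and miRNA reads from 11412945 to 14822686 and from 27651384 to 35704399. mir-21a itself was counted between 70056 and 144166 times in sperm and between 1763771 and 3900016.5 times in TM4, where a fraction marks reads divided among entries. The 95% Wilson interval of its share was at most 0.0108 percentage points wide on either side, and this covers counting error only. HFD replicate 1 stood apart, since its counts gave chi-square values of 1138 and 1461 per degree of freedom against the other HFD libraries, compared with 285 between those. No 2 replicates agreed within sampling noise. Small RNA libraries do not measure the Ang mRNA, so its overexpression could not be checked here. The labels do not say that TM4 replicates were separate cultures, so p-values measure only the spread between these libraries, and the preparation batches that the study's methods mention for the cell lines are not named in the labels and were not modelled.

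All mir-21a reads matched the genome. The number without a match was 0 in each of the 12 libraries, which allows a share of up to 0.00428% in the sperm library with the fewest mir-21a reads and 0.00017% in the corresponding TM4 library. Between 10 and 65 reads of all miRNAs together lacked a match. With every value at 0, the planned comparison of this share between diets had nothing to test, and no row outside the miRNA classes named mir-21.

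In sperm, mir-21a was among the 20 most abundant precursors of every library, of 737 to 802 detected. The 3 CD libraries held 7300.0, 6138 and 6670.1 CPM, a mean of 6703 ± 582 (SD, n = 3) or 0.670% of miRNA reads, which placed it at rank 18. The 3 HFD libraries held 5230.1, 9332 and 9726 CPM, a mean of 8096 ± 2490 (SD, n = 3) or 0.810%, at rank 15. HFD replicates 2 and 3 lay above all CD libraries and HFD replicate 1 lay below all of them, so the groups overlapped. Of the 449 precursors tested in sperm, 4.01% were higher and 2.23% lower in HFD with no overlap. In RPM the CD mean was 3310 ± 416 and the HFD mean 4261 ± 1423 (SD, n = 3 each). The HFD mean was 1.21 times the CD mean in CPM, a log2 ratio of 0.27 beside a spread of 0.52. This spread is the square root of the summed variances of log2 CPM within the 2 groups, and is not an error of the ratio. Without HFD replicate 1 the log2 ratio was 0.51, and without HFD replicate 3 it was 0.12.

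The TM4 cells held far more mir-21a than sperm in relative terms. The Ctrl libraries held 62636 and 63124 CPM, a mean of 6.29% ± 0.0345 of miRNA reads (SD, n = 2), at rank 5 after mir-10a, mir-99b, mir-10b and mir-22. In CC-treated cells the values were 64189 and 70850.0 CPM, a mean of 6.75% ± 0.471 (SD, n = 2), again at rank 5. Both CC libraries were above both Ctrl libraries, but the difference of 4640 CPM between the means was below the SD of 4710 CPM between the CC libraries. Among all tested precursors 23.1% were higher and 24.0% lower in CC with no overlap in CPM. In Ang OE cells the values were 106002 and 115668 CPM, a mean of 11.1% ± 0.683 (SD, n = 2), at rank 3. The 2 Ang OE libraries were higher than every other library of the series. With no overlap in CPM, 25.1% of the tested precursors were higher and 45.2% lower in Ang OE cells. The 6 TM4 libraries together did not overlap the 6 sperm libraries, whose highest value was 9726 CPM. In bulk libraries such as these, fewer cells of a type and less RNA per cell cannot be told apart.

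**Figure D1:**
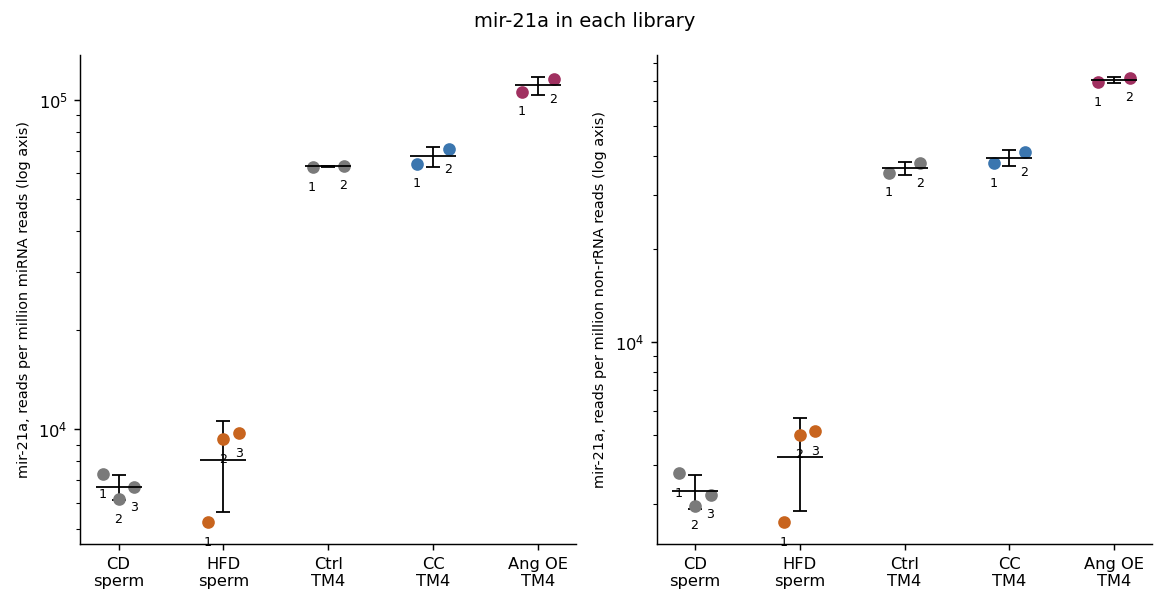
mir-21a in each of the 12 libraries, as reads per 1000000 miRNA reads (left) and reads per 1000000 non-rRNA clean reads (right), on log axes. Points are libraries with their replicate number, and the bar and whiskers are the group mean ± SD (n = 3 per sperm group, n = 2 per TM4 group). The sperm groups overlap, and both Ang OE libraries lie above all others.

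On the second scale the order of the group means was the same. The Ctrl libraries held 35223 and 37801 RPM and the CC libraries 37806 and 41148 RPM, so these neighbours were barely separated. The Ang OE libraries held 69181 and 71524 RPM. The Ang OE mean was 1.76 times the Ctrl mean in CPM (log2 ratio 0.82, spread 0.089, defined as for sperm) and 1.93 times in RPM (log2 ratio 0.95). Leaving out 1 library at a time kept the CPM ratio between 1.69 and 1.84. The fit over all precursors used TMM scaling, which sets the bulk of the precursors to no change. It gave mir-21a a log2 fold change of 1.09 for Ang OE, 0.11 for CC and 0.16 for HFD, printed here without a test. With 1 library left out at a time the TMM values ran from 0.97 to 1.13 for Ang OE and from 0.045 to 0.16 for CC. The HFD value ran from -0.020 to 0.48 and turned negative without HFD replicate 2, so its direction by TMM rested on that library.

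The ratio of mir-21a to another precursor within a library does not depend on a library total. In Ctrl cells there were 0.554 ± 0.0245 reads of mir-21a per read of mir-10b (SD, n = 2), and in Ang OE cells 0.978 ± 0.0588, which is 1.77 times as many. Against mir-22 the ratio went from 0.909 ± 0.0114 to 1.58 ± 0.159, and against mir-10a from 0.408 ± 0.00953 to 0.828 ± 0.113. The widest change was against mir-99b, from 0.522 ± 0.015 to 1.67 ± 0.277 or 3.20 times, since mir-99b itself took a smaller share in Ang OE cells. Against mir-148a the ratio was 5.75 ± 0.562 in Ctrl and 5.44 ± 0.266 in Ang OE cells and the groups overlapped, and against mir-143 it was 1.23 ± 0.105 and 1.02 ± 0.165. Thus of the 7 precursors that stood among the 5 most abundant in some group, mir-21a gained on 5 and did not gain on mir-148a or mir-143.

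The CC libraries gave a different picture on these ratios. mir-21a per read of mir-10b was 0.558 ± 0.0636 in CC and 0.554 ± 0.0245 in Ctrl cells (SD, n = 2 each), with overlapping libraries. Relative to mir-22 the CC ratio was lower, 0.841 ± 0.0406 against 0.909 ± 0.0114, and relative to mir-10a and mir-99b it was 1.29 and 1.32 times the Ctrl ratio. The direction in CC cells therefore depended on the precursor used as the reference. In sperm, the HFD and CD libraries overlapped for all 7 references, with HFD ratios from 1.01 times the CD ratio (mir-22) to 1.46 times (mir-99b).

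**Figure D2:**
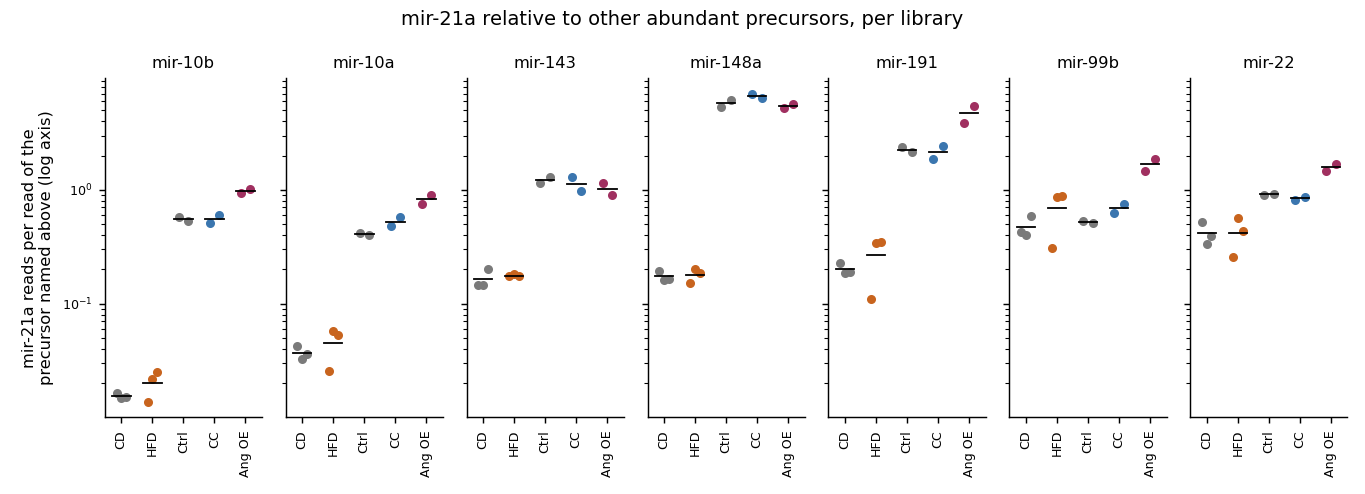
Reads of mir-21a per read of 7 other abundant precursors in each library, on a common log axis. Points are libraries and lines are group means. In Ang OE cells mir-21a is 1.73 times its Ctrl ratio to mir-22 and 1.77 times its Ctrl ratio to mir-10b, but not above its Ctrl ratio to mir-143 or mir-148a.

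The rise of mir-21a share in Ang OE cells was one of the main changes in the make-up of the miRNA pool. Its share grew by 4.80 percentage points. Only mir-143, an abundant miRNA of smooth muscle and stroma, gained more (5.90 points, from 5.14% ± 0.411 to 11.05% ± 2.45; SD, n = 2), and only mir-99b lost more than mir-21a gained, going from 12.0% ± 0.412 to 6.70% ± 0.701. In Ang OE replicates 1 and 2 mir-143 was at 93152 and 127843 CPM, beside 106002 and 115668 CPM for mir-21a. The larger gain of mir-143 thus rested on Ang OE replicate 2. mir-10a fell by 1.95 points and mir-148a gained 0.938 points. All gains together summed to 15.2 points, of which mir-21a made up 31.6% and mir-143 38.9%. In CC cells mir-21a gained 0.464 points and ranked eighth in size of change, behind, among others, mir-10a (which fell by 2.496 points) and mir-99b (which fell by 2.18 points). In HFD sperm it gained 0.139 points, while mir-10b, the most abundant miRNA there, went from 43.4% ± 1.43 to 40.0% ± 2.62 (SD, n = 3).

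**Figure D3:**
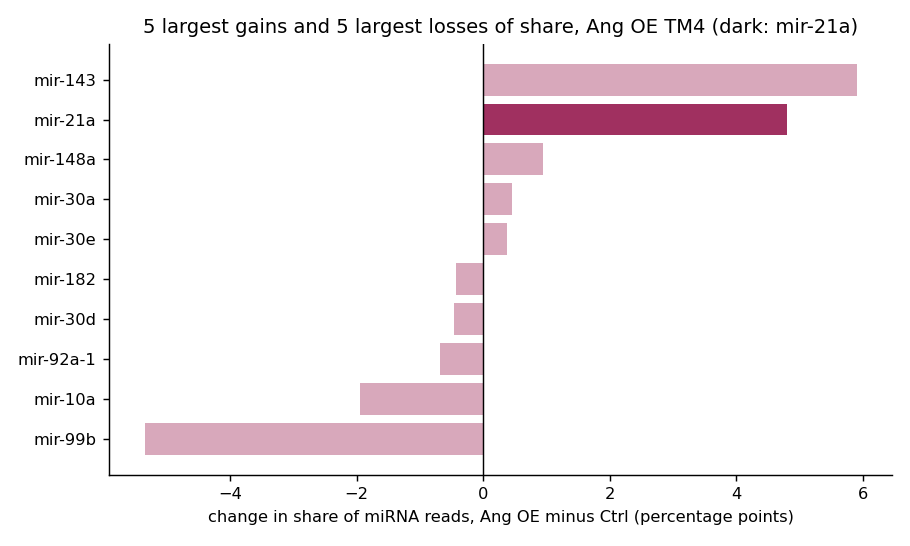
Change in share of miRNA reads between Ang OE and Ctrl TM4 cells in percentage points, from the means of 2 libraries each, for the 5 precursors that gained most and the 5 that lost most. mir-21a (dark) gained 4.80 points, next to mir-143 with 5.90 points, and mir-99b lost 5.35 points.

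The miRNA fraction of the non-rRNA reads was 58.1% ± 2.58 in Ctrl cells, 58.5% ± 0.58 after CC and 63.5% ± 2.42 after Ang OE (SD, n = 2 each). Between Ctrl and Ang OE this was a net difference of 54910 miRNA reads per 1000000 non-rRNA reads, in which gains and losses of single precursors offset each other. mir-21a gained 33841 RPM, mir-143 gained 40106 RPM and mir-99b lost RPM (a difference of -27356). The mir-21a gain stayed between 32552 and 35129 RPM with each Ctrl or Ang OE library left out in turn, while the net difference ranged from 36668 to 73151 RPM. The effective number of precursors, the exponential of the Shannon entropy of the shares, was 29.4 ± 0.554 in Ctrl and 27.1 ± 0.971 in Ang OE cells, and with mir-21a taken out 28.8 ± 0.57 and 27.7 ± 0.851 (SD, n = 2 each).

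A larger share for mir-21a leaves less for all other precursors. Between Ctrl and Ang OE cells the share held by all other precursors together fell by 5.12%, so that removing mir-21a from the total moved every other precursor up by 0.076 on the log2 scale. The corresponding shift was 0.0072 for CC and 0.002 for HFD. Scaled by the miRNA total, the median log2 fold change of the 532 other tested precursors in Ang OE cells was -0.21, and with mir-21a removed from the total it was -0.14. Of those 532, edgeR's quasi-likelihood test (Benjamini-Hochberg adjusted p under 0.05) called 80 higher and 139 lower with mir-21a in the total, and 90 higher and 117 lower without it. All 80 and all 117 were shared, so removing mir-21a dropped 22 lower calls and added 10 higher ones. The sign of the fold change turned for 22 precursors.

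With TMM scaling the same contrast called 203 of the 532 other precursors, 128 higher and 75 lower, and their median was 0.06. Over the whole table of 533 precursors the shares called were 38.3% in all, 24.2% higher and 14.1% lower. The split between higher and lower calls thus turned with the scaling, since among the others it was 80 higher and 139 lower by the miRNA total and 97 higher and 103 lower by clean reads without rRNA. The edgeR fit used all 6 TM4 libraries. For CC it called 22 of 533 precursors (4.13%), 12 higher (2.25%) and 10 lower (1.88%), but none without CC replicate 2 (13 when that fit was scaled by the miRNA total). For HFD it called 0 of 449 (0%), with 31 at an unadjusted p under 0.05 and 12 called by DESeq2. Scaled by the miRNA total and without CD replicate 1, it called 8 in HFD, all lower.

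**Figure D4:**
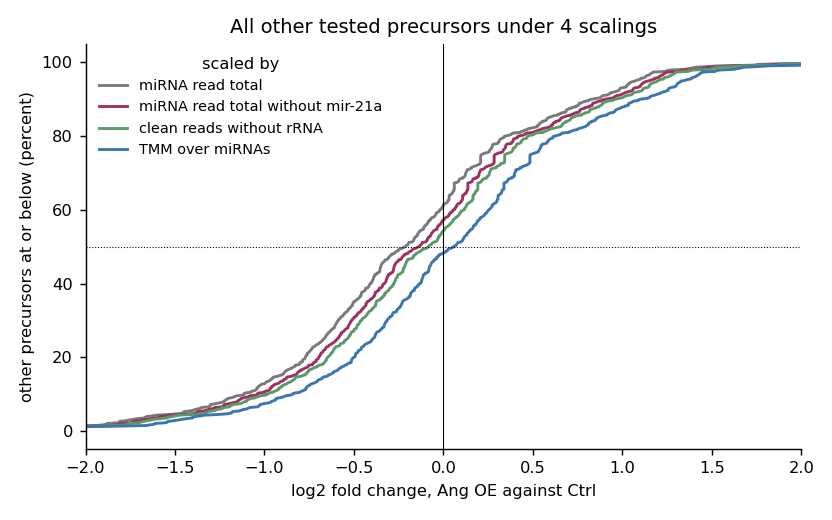
Cumulative percentage of the 532 precursors other than mir-21a by their log2 fold change in Ang OE against Ctrl TM4 cells, under 4 scalings. The median lies at -0.21 for the miRNA total, at -0.14 when mir-21a is left out of that total and at 0.06 with TMM.

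mir-21c was the only seed relative with enough reads to test. It was counted 11.5 to 31 times per sperm library and 571.5 to 1153.5 times per TM4 library, and mir-21b 0 to 3 times in any library. In TM4 the mir-21c level was 23.1 and 20.04 CPM in the Ctrl libraries, 18.8 and 24.3 CPM after CC and 29.9 and 34.2 CPM after Ang OE. The Ang OE libraries were above the rest, with a log2 fold change of 0.85 (SE 0.15, edgeR quasi-likelihood adjusted p = 0.00034), while CC gave 0.0043 (SE 0.16, edgeR adjusted p = 0.99) and HFD 0.15 (SE 0.38, edgeR adjusted p = 0.98). In reads per 1000000 mir-21a reads, mir-21c stood at 158 to 215 in sperm and at 282 to 369 in TM4. The annotation allowed a mismatch and kept reads as short as the stretch that both miRNAs share, and the part of misassigned mir-21a reads in the mir-21c counts was not tested.

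Other miRNAs whose genes are known to respond to AP-1, STAT3 or NF-kB gave calls in Ang OE cells that depended on the scaling. The list holds mir-146a and mir-146b (negative feedback on inflammatory signalling), mir-155 (immune activation), mir-181b-1 and mir-181b-2, and the clustered mir-221 and mir-222 (repressors of cell cycle inhibitors), all 7 of which were tested. With TMM, 1 was called higher and 2 lower, against 24.2% and 14.1% of all precursors, and the list's median log2 fold change was -0.083 beside 0.06 over all precursors. By the miRNA total, 0 were called higher and 5 lower (mir-146a, mir-181b-1, mir-181b-2, mir-221 and mir-222), where 26.1% of all precursors were called lower, and the medians were -0.36 and -0.21. With mir-21a left out of that total, 4 were called lower, since mir-146a was no longer called (edgeR adjusted p = 0.056), and 22.0% of all precursors were called lower. By clean reads without rRNA, 2 were called lower, with 19.3% of all precursors. mir-222 was at 3424 and 3515 CPM in Ctrl and at 1963 and 1797 CPM in Ang OE cells (log2 fold change -0.61, SE 0.10, edgeR adjusted p = 0.00014). Its neighbour mir-221 was at 5316 and 5143 CPM in Ctrl and at 3545 and 3404 CPM in Ang OE cells (log2 fold change -0.32, SE 0.094, edgeR adjusted p = 0.014), a call lost without either Ctrl library (adjusted p = 0.081 and 0.11). Both were lower under every scaling tried.

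The 1 higher call of the list, mir-155, was kept under 9 alternatives and lost under 8, with other scalings among the 8. Its log2 fold change by TMM ran from 0.16 to 0.36 over the left-out libraries. It was at 1263 and 1267 CPM in Ctrl and at 1397 and 1207 CPM in Ang OE cells, which overlap, with a log2 fold change of 0.32 by TMM (SE 0.10, edgeR adjusted p = 0.02) and 0.042 by the miRNA total (edgeR adjusted p = 0.79). In CC cells 1 of the 7 was called, lower, where 1.88% of all precursors were called lower. This was mir-146b, at 1310 and 1230 CPM in Ctrl and at 904.7 and 873 CPM in CC cells (log2 fold change -0.51, SE 0.10, edgeR adjusted p = 0.0069, and 0.11 without CC replicate 2). In HFD sperm none of the 7 was called by edgeR, and their log2 fold changes ran from -0.29 to -0.039 by TMM, while 3 of them were positive by the miRNA total. Reads of mir-181b-1 and mir-181b-2 come from near-identical hairpin products and cannot be assigned with certainty to either.

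The mesenchymal miRNAs mir-199a-1, mir-199a-2, mir-199b and mir-214, which are typical of fibroblasts and other stromal cells, were examined as a separate list. In Ang OE cells mir-199b was called higher (log2 fold change 0.40, SE 0.10, edgeR adjusted p = 0.0042) and mir-214 lower (log2 fold change -0.34, SE 0.11, edgeR adjusted p = 0.017). This was 1 of 4 in each direction, beside 24.2% of all precursors called higher and 14.1% called lower. The mir-199b call was lost by the miRNA total (0.13, adjusted p = 0.35), and the mir-214 call without Ctrl replicate 2 or Ang OE replicate 2 (adjusted p = 0.26 and 0.099). The mir-199a precursors, whose shared products make them hard to tell apart, had log2 fold changes of 0.13 each by TMM but -0.15 and -0.14 by the miRNA total, and neither was called. None of the 4 was called in CC cells or in HFD sperm by edgeR with TMM, where 4.13% and 0% of all precursors were called. In CC cells mir-214 gained a call under 1 alternative. The median of the list was 0.13 for Ang OE, -0.21 for CC and 0.052 for HFD, beside 0.06, -0.031 and -0.009 over all precursors.

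Markers of other cell types were read beside these levels. In sperm all 7 male germ cell miRNAs on the list were above 1 CPM, and their sum was 3489.8 to 10256 CPM in CD and 3443 to 5030.5 CPM in HFD libraries. The epithelial list (the mir-200 family and mir-141) summed to 9281 to 10573 CPM in CD and to 8946, 11272 and 14327 CPM in HFD replicates 1 to 3. The smooth muscle and stroma list (mir-143 and mir-145a) summed to 33595 to 50954 CPM in CD and to 30612, 52005 and 56120 CPM in the same HFD libraries. HFD replicate 1, the lowest sperm library in mir-21a, was thus also the lowest in both sums, which mir-141 and mir-143 carry. The single members did not all follow, since HFD replicate 1 was the highest sperm library in mir-200b (2591 CPM) and mir-200c (1923 CPM) and was not the lowest in mir-429 (698 CPM) or mir-145a (401 CPM). It was the highest in the red blood cell list (50595 CPM, against 25239 to 36163 CPM in the other 5 sperm libraries) and in the white blood cell list (1422 CPM, against 580.3 to 917 CPM). The red blood cell sum is mostly mir-486a and mir-486b (24088 and 23937.5 CPM in HFD replicate 1), while its member mir-144 was at 150.2 CPM there, below CD replicate 3 and the other HFD libraries (183.5 to 267.4 CPM). All 3 white blood cell members were highest in HFD replicate 1. The striated muscle list stayed between 33.6 and 49.2 CPM in all sperm libraries. The part of these cell types in the mir-21a values was not tested.

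In TM4 the same lists were near 0 for epithelium (1.28 to 2.38 CPM summed over 5 miRNAs), white blood cells (2.23 to 4.30 CPM) and striated muscle (2.37 to 5.26 CPM). The red blood cell list summed to 2737 and 2857 CPM in Ctrl and to 1879 to 1956 CPM after CC and 1762 and 1784 CPM after Ang OE, with 2 of its 4 members under 1 CPM. The male germ cell list summed to 1017 to 1050.3 CPM in Ctrl cells, 934 to 1025 CPM after CC and 1932 to 2045.0 CPM after Ang OE, with 4 of its 7 members under 1 CPM. Most of this sum was mir-34c, at 979.5 and 939.8 CPM in Ctrl and at 1956 and 1834 CPM in Ang OE cells. The stroma list, which mir-143 dominates, summed to 49714 and 55567 CPM in Ctrl cells, 51422 and 73465 CPM after CC and 94556 and 129039 CPM after Ang OE. Its other member, mir-145a, was at 1213 and 1171 CPM in Ctrl and at 1404 and 1196 CPM in Ang OE cells, which overlap. No list of miRNAs that defines Sertoli cells was used.

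The precursors most like mir-21a were sought over the 12 libraries, after the mean of the sperm or the TM4 libraries was subtracted from log2 CPM. Among 165 precursors with at least 100 reads in every library, the median Pearson r with mir-21a was -0.40, and 17 had an r above 0.9. These values describe libraries that share a group and a total, and carry no test. The 5 most alike were mir-101b (r = 0.99), let-7i (0.98), mir-101a (0.97), mir-96 (0.95) and mir-340 (0.95), and the lowest r was that of let-7b (-0.96). The arm of each that is usually the more abundant is printed to show its seed, and none of the 5 seeds is that of miR-21a-5p.
miR-101b-3p: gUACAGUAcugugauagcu
let-7i-5p: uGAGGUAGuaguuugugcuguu
miR-101a-3p: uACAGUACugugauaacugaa
miR-96-5p: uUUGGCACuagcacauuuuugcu
miR-340-5p: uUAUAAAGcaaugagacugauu

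These 5 precursors differed widely from mir-21a in level. let-7i, a repressor of growth and cell cycle genes, was at 5445 and 4958 CPM in Ctrl cells, 4642 and 5617 CPM after CC and 8247 and 9316 CPM after Ang OE, so its Ang OE mean was 1.69 times the Ctrl mean, beside 1.76 for mir-21a. mir-101b was at 684 and 629 CPM in Ctrl and 1239 and 1581 CPM in Ang OE cells. mir-101a, which with mir-101b targets the histone methyltransferase Ezh2, was at 34.5 and 36.7 CPM in Ctrl and 109.5 and 128.5 CPM in Ang OE cells, the largest rise of the 5 (3.34 times). mir-96 went from 106.8 ± 4.49 to 238 ± 4.24 CPM and mir-340 from 18.1 ± 1.05 to 34.4 ± 4.93 CPM (SD, n = 2 each). The order in sperm was different, with mir-101a at 664 ± 130 CPM and mir-340 at 439 ± 60.0 CPM in CD (SD, n = 3), both above their TM4 levels. HFD replicate 1 was the lowest sperm library in all 5, as in mir-21a, but they were chosen for their likeness to mir-21a over these same libraries, so this is no separate observation.

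**Figure D5:**
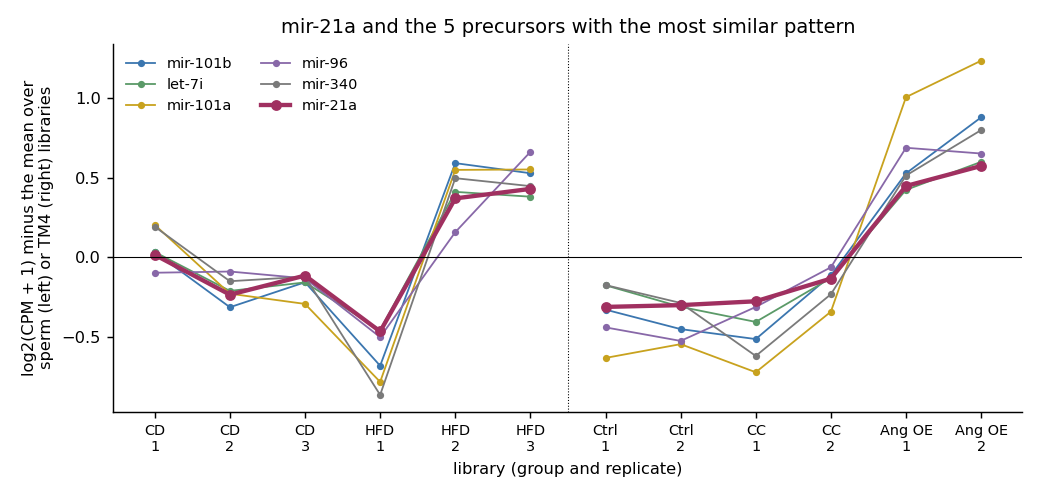
log2(CPM + 1) of mir-21a (thick line) and the 5 most similar precursors in each library, after subtraction of the mean over the 6 sperm libraries (left) or the 6 TM4 libraries (right). HFD replicate 1 is the lowest sperm library and the 2 Ang OE libraries are the highest TM4 libraries in all 6 precursors.

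The precursors with the largest fold changes in TM4 were far less abundant than mir-21a and had little weight in the pool. In Ang OE cells, mir-101a (log2 fold change 2.02, SE 0.15, edgeR adjusted p = 5.6e-08), mir-190a (1.82, SE 0.15, edgeR adjusted p = 1.2e-07) and mir-708 (1.68, SE 0.22, edgeR adjusted p = 1.4e-05) rose most among the called precursors with at least 100 reads on average and no overlap between groups. Their Ang OE means were 119, 29.4 and 4.84 CPM. mir-5122 (-2.16, SE 0.21, edgeR adjusted p = 8.9e-07), mir-6516 (-1.38, SE 0.25, edgeR adjusted p = 0.00029) and mir-344d-2 (-1.18, SE 0.12, edgeR adjusted p = 1.1e-06) fell most, to 2.80, 3.02 and 55.0 CPM. In CC cells mir-760, mir-5114 and mir-149 rose (log2 fold changes 0.98, 0.85 and 0.75, edgeR adjusted p = 0.0043, 0.0043 and 0.0038), and mir-541, mir-7a-2 and mir-450b fell (-0.85, -0.67 and -0.64, edgeR adjusted p = 0.011, 0.0043 and 0.0038). The highest of these 6 was mir-149 with 327 ± 2.01 CPM in CC cells (SD, n = 2). With TMM all 6 CC calls were lost without CC replicate 2. No precursor met this rule in HFD sperm.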

How the data were processed

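Small RNA was sequenced in 6 sperm and 6 TM4 libraries. Per the methods and the submitters' processing notes, the authors checked reads with FastQC (0.12.0), trimmed them with Trimmomatic (0.40) and annotated them with SPORTS1.1 (bowtie), build mm10, allowing a mismatch and assigning rRNA and tRNA matches before miRBase. The values the authors deposited are estimated counts of reads per class and precursor, in which a read that matches several entries is divided among them. mir-21a and the lists were chosen with earlier results of these data known. CPM, RPM and shares were computed from the deposited counts. Fits used edgeR (4.0.16, R 4.3.3) quasi-likelihood tests on counts rounded to whole numbers, TMM scaling and Benjamini-Hochberg adjustment (adjusted p under 0.05), for precursors with at least 10 reads in 3 sperm or 2 TM4 libraries. The SE printed with a fold change is its absolute log2 value divided by the square root of the F statistic of the quasi-likelihood test. DESeq2 (1.42.0), other totals, filters, left-out libraries and a replicate block were alternatives. Besides mir-21a, precursors were named by rule, namely its seed family, the 5 most abundant per group, the 5 most alike, the 3 largest called changes per direction (mean of at least 100 reads, groups not overlapping) and 2 lists of related miRNAs, beside 6 lists of cell type markers. Sequences are from RefSeq (GRCm38.p6). Depth sets the counting error only, as given with each share.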

Additional observations from a re-analysis of the deposited data

How the results depend on the processing

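The level of mir-21a in Ang OE against Ctrl TM4 cells (log2 ratio 0.82) stayed positive under every alternative and was larger by clean reads without rRNA (0.95), by all clean reads (0.96), by TMM (1.09), by DESeq2 size factors (1.03) and with the replicate block (1.09). Leaving out each library gave CPM log2 ratios of 0.75 to 0.88 for Ang OE, 0.03 to 0.17 for CC and 0.12 to 0.51 for HFD, while by TMM the HFD value was -0.020 without HFD replicate 2. With TMM, called precursors ranged from 158 to 214 for Ang OE, from 0 to 26 for CC and from 0 to 0 for HFD over the left-out libraries, where a group left with a single library was taken to vary like the others. Scaled by the miRNA total, the same fits called 176 to 228, 10 to 38 and 0 to 8. DESeq2 called 12 for HFD, and the cause was not tested. Same-numbered libraries did not deviate together (correlations from -0.42 to 0.17 in sperm, -0.12 for CC and -0.22 for Ang OE), so the numbers were not taken as pairs. The replicate block raised the CC count to 35, and a crossed pairing, added after the data were seen, to 55 for CC and 229 for Ang OE. The block gave 222 calls for Ang OE and 0 for HFD. The median log2 fold change of the other precursors (-0.21 for Ang OE) moved with TMM to 0.060 for Ang OE and -0.0095 for HFD, by clean reads without rRNA to -0.082 for Ang OE and 0.19 for HFD, and for Ang OE to -0.14 without mir-21a in the total and -0.087 with at least 100 reads. Over the left-out libraries it was -0.24 to -0.17, -0.044 to 0.007 and 0.029 to 0.17 for Ang OE, CC and HFD. The share of mir-21a reads without a genome match was 0 for every left-out library, and relative to the other miRNA reads it differed by 6.6e-05 percentage points in Ang OE. Of 791 values for single named precursors, 296 stayed called, 461 stayed not called, 27 lost a call, 7 gained one and 0 turned with a call. A comparison with precursors of like hairpin GC content, chosen after the data were seen, is not reported. Of the tested precursors, 72.8% to 73.4% had a hairpin sequence among those used.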
